A study of Drosophila melanogaster with 15 samples.

Results

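The genes described are 10 members of the Notch pathway of Drosophila melanogaster, taken from a fixed list of symbols. They are the receptor gene N, the ligand gene Dl, the DNA-binding factor gene Su(H) and 7 genes of the Enhancer of split complex, E(spl)mgamma-HLH, E(spl)mdelta-HLH, E(spl)mbeta-HLH, E(spl)m3-HLH, E(spl)m5-HLH, E(spl)m7-HLH and E(spl)m8-HLH. All 10 were found among the 8990 genes of the deposited table, and all 10 passed the filter on low counts. Their counts ran from 87 reads, for E(spl)m5-HLH in its lowest library, to 9965 reads, for N in its highest.

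Polyadenylated RNA was measured in brains of female late third-instar larvae raised at 25 ºC, in 15 libraries of 3 pooled brains each. Each of 5 genotypes had 3 libraries, from different days, which carry the batch labels 4, 5 and 6 and are called replicates 4, 5 and 6. CDXY larvae, C(1)DX/Y, carried an attached X chromosome and a Y and were taken 5 days after egg laying. CDXX larvae, C(1)DX/X, carried the attached X with a free X, hence 3 copies of X against 2, and were taken 8 days after egg laying. C2L larvae carried C(2L)SH1, a compound left arm of chromosome 2, and were taken at 5 days. T2L larvae were read as C(2L)SH1/+, the stated genotype left after the others were matched, with 3 copies of 2L against 2, and were taken at 8 days. Oregon is a standard laboratory strain, and its age was not given in the sources used here. Age and copy number differ together in CDXX against CDXY and in T2L against C2L, so they cannot be told apart there. By the genotypes given, CDXY also carried a Y where CDXX carried a free X, which cannot be told apart from age and copy number either. Differences of genetic background between trisomic and control larvae were not tested. A change in whole brains can come from more or fewer cells of a type or from more or less RNA per cell, and these cannot be told apart.

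Notch signalling passes between touching cells. A ligand such as Delta on one cell binds the receptor Notch on its neighbour, ADAM proteases and then gamma-secretase cut the receptor, and the freed intracellular piece joins Su(H) and the coactivator Mastermind on DNA. Without that piece, Su(H) represses the same targets together with Hairless. The best known targets are the E(spl) bHLH genes, whose protein products are repressors that recruit Groucho and oppose proneural factors. In the larval brain the pathway maintains neural stem cells, the neuroblasts, separates daughter cell fates, and acts in the optic lobe and in glia.

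The members lie on 3 chromosomes, which sets their copy number in these larvae (assembly dm6). N (FBgn0004647) lies on X from 3134870 to 3172221 on the plus strand and so was present in 3 copies in CDXX. Su(H) (FBgn0004837) lies on 2L from 15039488 to 15043334 on the plus strand and was present in 3 copies in T2L. Dl (FBgn0000463, now named Delta) lies on 3R from 19302731 to 19326217 on the minus strand. The 7 E(spl) genes lie together on 3R, from E(spl)mdelta-HLH, which starts at 25997621, to E(spl)m8-HLH, which ends at 26041008, and each is a single exon block. Dl and the E(spl) genes had 2 copies in every group. No other annotated gene overlaps any of the 10.

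Total counts ran from 22949943 to 28272926 reads per library. Of 8981 genes tested, 43.9% were called in CDXX against CDXY, 15.7% in T2L against C2L and 37.6% in CDXX against T2L, with edgeR's quasi-likelihood test at an adjusted p under 0.05. Markers of brain cells were present in every group: the summed level of 7 neuron markers lay between 3230 and 5000 CPM (counts scaled by library size). That of 8 neuroblast markers lay between 5760 and 11600, but it was mostly pros and brat, which are not restricted to neuroblasts. Among the more specific markers, group means lay between 5.78 and 8.43 CPM for dpn, between 20 and 31.6 for insc, between 29.8 and 42.2 for ase and between 36.7 and 56.7 for wor. Of the 8 neuroblast markers none rose and brat fell in CDXX against CDXY, and none was called in T2L against C2L. Of 7 neuron markers none was called in CDXX and Syt1, on 2L, rose in T2L. Of 8 glia markers 3 rose and 1 fell in CDXX, with sums of 2080 to 2180 CPM beside 930 to 1160 in CDXY and a median log2 fold change of 0.054. Most of that difference in sums was the X-linked Gs2, with 1100 ± 77.5 CPM in CDXX beside 220 ± 60.9 in CDXY (SD, n = 3), and repo was at 147 ± 27.8 and 127 ± 22.7. In T2L 3 glia markers rose, with sums of 1220 to 2160 CPM beside 725 to 1270 in C2L. Markers of tissues outside the brain also moved. Of 7 hemocyte markers 2 rose in CDXX (sums of 435 to 1780 CPM, the last in replicate 6, beside 88.1 to 349 in CDXY). Of 7 muscle markers 5 rose in CDXX (166 to 507 beside 82.1 to 116). In T2L against C2L 1 muscle marker rose, Mlc2 (log2 2.41, edgeR QL adjusted p = 0.0106). The muscle sums were 117 to 181 CPM in T2L beside 69.9 to 108 in C2L, and no hemocyte marker was called there. The summed level of 5 ring gland markers differed widely between replicates, at 10.6, 221 and 1600 CPM in CDXX replicates 4, 5 and 6. In CDXY it was 58, 4.09 and 1160, and no ring gland marker was called in either comparison. The part of these tissues in the results below was not tested.

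Levels of the members were compared per length, in RPKM, which is CPM divided by the exon length in kilobases. Over the 15 libraries the mean was 42.5 RPKM for E(spl)mgamma-HLH, 36.2 for E(spl)mbeta-HLH, 26.4 for E(spl)m8-HLH, 23.3 for E(spl)m7-HLH and 22.4 for N. The others had lower means, at 13.5 RPKM for E(spl)m3-HLH, 12.6 for Dl, 12.2 for E(spl)mdelta-HLH, 12.1 for Su(H) and 10.3 for E(spl)m5-HLH. Among the members, E(spl)m5-HLH and E(spl)mdelta-HLH varied over the libraries by the largest factors, 5.18 and 4.27 between the lowest and the highest library in CPM. E(spl)m7-HLH varied by 1.77. The order differed between groups. In CDXX, N at 34.6 RPKM was above E(spl)m8-HLH at 27.3 and E(spl)m7-HLH at 26, in CDXY E(spl)mbeta-HLH at 33.9 was above E(spl)mgamma-HLH at 32.2, and in T2L Su(H) at 16.2 was above Dl at 11.4.

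In CDXX against CDXY, 4 of the 10 members were called, against 43.9% of all genes. The receptor gene N, the ligand gene Dl and the target E(spl)mgamma-HLH rose, and Su(H) fell, where 23.1% of all genes rose and 20.8% fell. The same 4 members had groups without overlap in CPM, as did 53.5% of all genes, so neither share of the members stood above that of all genes. The median log2 fold change of the 10 was 0.66, beside 0.018 over all genes tested, and 9 of the 10 had a value above 0. The remaining 6 E(spl) genes were not called. In T2L against C2L only Su(H) was called among the 10, and it rose, against 15.7% of all genes, 11.6% higher and 4.05% lower. Groups did not overlap for 2 members there, Su(H) and E(spl)mdelta-HLH, as for 37.5% of all genes, and the members' median was 0.3, beside −0.011.

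N, the transmembrane receptor, was at 242, 175 and 194 CPM in CDXY replicates 4, 5 and 6 and at 297, 382 and 376 in CDXX. It was at 232, 175 and 204 CPM in Oregon, 233, 175 and 233 in C2L and 183, 164 and 152 in T2L. All 3 CDXX libraries lay above all other 12, while Oregon, CDXY and C2L overlapped one another and T2L overlapped each of them only at its upper end. The means were 351 ± 47 CPM in CDXX (SD, n = 3), 213 ± 33.7 in C2L, 204 ± 28.3 in Oregon, 204 ± 34.4 in CDXY and 166 ± 15.6 in T2L.

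N rose 1.73-fold in CDXX against CDXY (log2 0.79, SE 0.16, 95% interval 0.44 to 1.13, edgeR QL adjusted p = 0.00227). The copy ratio of 3 to 2 is 0.58 on this scale, which lies within that interval. The 1564 X-linked genes tested had a median of 0.45 with quartiles of 0.18 and 0.8, so N stood 0.33 above the median of its chromosome, and 74.4% of X-linked genes had a lower value. Against Oregon the log2 fold change of N was the same to 2 decimals, 0.79 (edgeR QL adjusted p = 0.00311). In T2L against C2L, where N had 2 copies in both groups, its log2 fold change was −0.36 (95% interval −0.7 to −0.017, edgeR QL adjusted p = 0.144) and did not pass. Within batches 4, 5 and 6 the log2 ratio of CDXX to CDXY was 0.3, 1.12 and 0.95, and that of T2L to C2L was −0.35, −0.089 and −0.62.

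Su(H), the DNA-binding factor of the pathway, was at 30.6, 37.6 and 34.9 CPM in CDXY replicates 4, 5 and 6 and at 25.5, 28.4 and 24.6 in CDXX. It was at 35.4, 35 and 34.2 CPM in C2L and at 48.3, 48.5 and 47 in T2L, with 35.4, 37.1 and 32.2 in Oregon. Oregon, C2L and CDXY overlapped, every T2L library lay above them and every CDXX library below. The order of the means was T2L (47.9 ± 0.817 CPM, SD, n = 3), Oregon (34.9 ± 2.48), C2L (34.8 ± 0.636), CDXY (34.3 ± 3.49) and CDXX (26.2 ± 1.99), and the middle 3 differed by less than their spread.

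Su(H) rose 1.38-fold in T2L against C2L (log2 0.46, SE 0.087, 95% interval 0.27 to 0.65, edgeR QL adjusted p = 0.00415). The 1562 genes of 2L had a median of 0.47 there, which Su(H) matched to within 0.01, and the copy ratio of 0.58 lies within its interval. In CDXX against CDXY, with 2 copies of 2L in both groups, Su(H) fell by 0.39 on the log2 scale, to 0.762 of the CDXY level (SE 0.088, 95% interval −0.58 to −0.2, edgeR QL adjusted p = 0.00395). The log2 fold change of Su(H) against Oregon was −0.41 in CDXX (edgeR QL adjusted p = 0.00392) and 0.46 in T2L (edgeR QL adjusted p = 0.00431). Within each batch the log2 ratio was between −0.5 and −0.26 for CDXX to CDXY and between 0.45 and 0.47 for T2L to C2L.

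Dl encodes the ligand Delta. It was at 69.7, 46.9 and 50.6 CPM in CDXY replicates 4, 5 and 6, at 82.1, 87.5 and 87 in CDXX and at 71.6, 51.4 and 62.7 in Oregon. In C2L it was at 78.3, 52 and 77.9 CPM and in T2L at 60.1, 66.4 and 54. The CDXX libraries were close together and above all others, and the other 4 groups overlapped. In order, the means were CDXX (85.6 ± 2.97 CPM, SD, n = 3), C2L (69.4 ± 15.1), Oregon (61.9 ± 10.1), T2L (60.2 ± 6.17) and CDXY (55.7 ± 12.2).

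Dl rose 1.53-fold in CDXX against CDXY (log2 0.62, SE 0.18, edgeR QL adjusted p = 0.0159), although its copy number did not differ. The call depended on single control libraries, with adjusted p = 0.0694 when CDXY replicate 5 was left out and 0.0607 when CDXY replicate 6 was. Against Oregon the log2 fold change of Dl in CDXX was 0.47 and did not pass (edgeR QL adjusted p = 0.0613), but it passed with batch as a replicate block (adjusted p = 0.0379). Between T2L and C2L it was −0.21 (95% interval −0.6 to 0.19, edgeR QL adjusted p = 0.473).

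**Figure D1:**
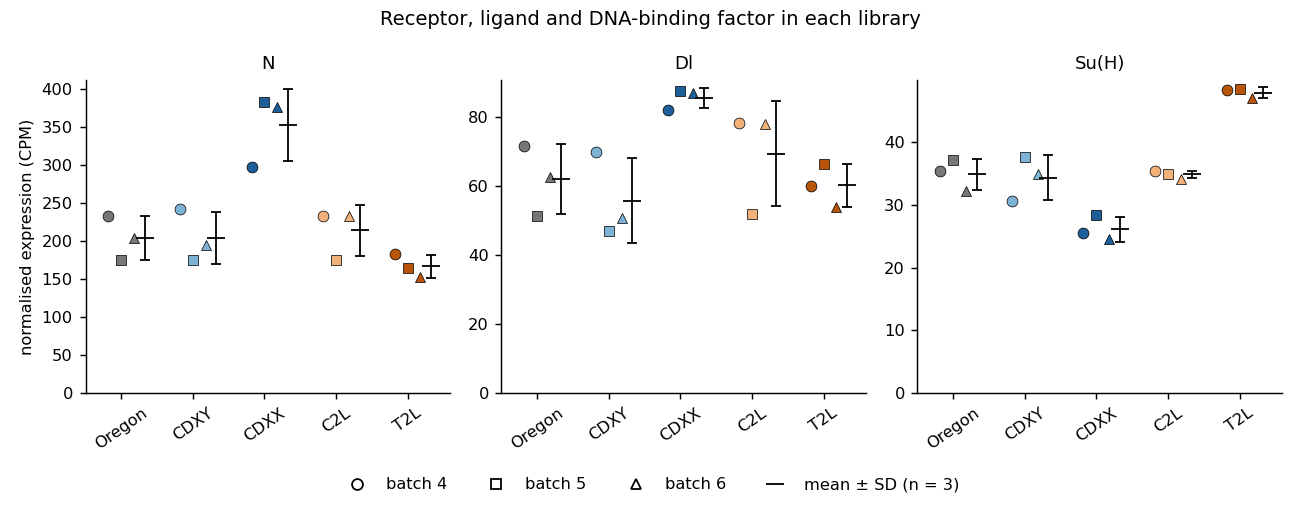
Expression of N, Dl and Su(H) in CPM (vertical axis) in the 5 genotypes (horizontal axis); points are single libraries with 1 symbol per batch, and bars are the mean and SD of 3 libraries. The 3 CDXX libraries lie above all others for N and Dl and below all others for Su(H), and the 3 T2L libraries, at 47 to 48.5 CPM, lie above all others for Su(H).

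**Figure D2:**
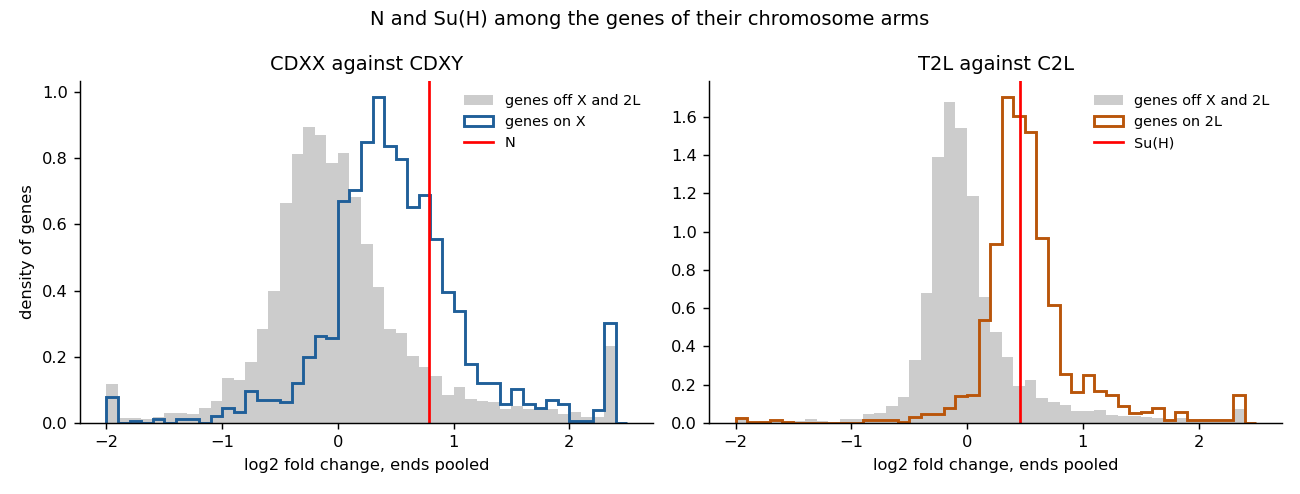
Density of log2 fold changes (horizontal axis, with values beyond the ends pooled in the outer bins) for genes on the arm with 3 copies, as an outline, and for genes off X and 2L, in grey. The red line marks N at 0.79, right of the X-linked median of 0.45, and Su(H) at 0.46, near the median of 2L at 0.47.

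Whether the responses to the 2 trisomies differed was tested by the difference of the log2 fold changes, for which 22.3% of all genes were called, 10.5% higher and 11.8% lower in CDXX. The comparisons share no library. The difference, CDXX minus T2L, was 1.15 for N (SE 0.22, edgeR QL adjusted p = 0.00331), 0.82 for Dl (SE 0.26, edgeR QL adjusted p = 0.0358) and −0.85 for Su(H) (SE 0.12, edgeR QL adjusted p = 0.000861). The call of Dl was lost in 9 of 19 alternatives, each of which left out 1 library, with adjusted p up to 0.091. No E(spl) member passed this test, with adjusted p from 0.252 for E(spl)mgamma-HLH to 0.906 for E(spl)mbeta-HLH. Larvae of the same age are compared in CDXX against T2L, where 18% of all genes were higher and 19.6% lower. There N was 2.11-fold higher (log2 1.08, edgeR QL adjusted p = 0.000235), Dl 1.42-fold higher (log2 0.51, edgeR QL adjusted p = 0.0427) and Su(H) lower, at 0.547 of the T2L level (log2 −0.87, edgeR QL adjusted p = 2.44e-05). Copies of X and 2L also differ in this comparison, and the median log2 fold change was 0.53 for X-linked genes and −0.57 for genes of 2L. Of X-linked genes 88.7% had a lower value than N, and of 2L genes 19.5% had a lower value than Su(H). E(spl)m3-HLH was 1.74-fold higher (edgeR QL adjusted p = 0.0484). The call of Dl ended without any single one of the 6 libraries compared (adjusted p 0.054 to 0.142), and that of E(spl)m3-HLH without any but CDXX replicate 6 (adjusted p 0.0921 to 0.144).

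Of the targets, E(spl)mgamma-HLH is strongly expressed in neuroblasts. Its mean RPKM was the highest of the 7 in every group except CDXY. It was at 29.8, 23.8 and 34.3 CPM in CDXY replicates 4, 5 and 6 and at 60.6, 61 and 43.4 in CDXX, with no overlap between these groups. It was at 46.4, 27.7 and 53 CPM in Oregon, 30, 23.4 and 34.6 in C2L and 36.2, 44 and 32.3 in T2L. The Oregon libraries reached into the range of CDXX and also down into that of CDXY.

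E(spl)mgamma-HLH rose 1.88-fold in CDXX against CDXY (log2 0.91, SE 0.24, 95% interval 0.39 to 1.43, edgeR QL adjusted p = 0.00942). Against Oregon the log2 fold change was 0.38 in CDXX (edgeR QL adjusted p = 0.235) and −0.53 in CDXY (edgeR QL adjusted p = 0.434), neither of which passed. In T2L against C2L it was 0.35 (95% interval −0.17 to 0.87, edgeR QL adjusted p = 0.342). Within batches 4, 5 and 6 the log2 ratio of CDXX to CDXY was 1.02, 1.36 and 0.34.

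E(spl)mbeta-HLH, which is expressed broadly in the developing nervous system and imaginal discs, was at 41.4, 27.2 and 30.8 CPM in CDXY replicates 4, 5 and 6 and at 47.7, 43.9 and 34.3 in CDXX. Its log2 fold change was 0.34 in CDXX (edgeR QL adjusted p = 0.175) and 0.29 in T2L (edgeR QL adjusted p = 0.343). The groups overlapped in both comparisons. Its group means lay between 30.9 ± 6.74 CPM in C2L and 42 ± 6.93 in CDXX (SD, n = 3).

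E(spl)m7-HLH and E(spl)m8-HLH lie at the end of the complex next to gro, and E(spl)m8-HLH is the gene in which the mutation that named the complex was found. In CDXY replicates 4, 5 and 6, E(spl)m7-HLH was at 19.7, 18.8 and 21.5 CPM, beside 31.6, 27.4 and 17.8 in CDXX (log2 0.35, edgeR QL adjusted p = 0.189). For E(spl)m8-HLH the CDXY values were 15.9, 14.1 and 18.8 CPM, beside 23.2, 24 and 15.7 in CDXX (log2 0.37, edgeR QL adjusted p = 0.159). In both genes CDXX replicates 4 and 5 were above all CDXY libraries and CDXX replicate 6 was within or below their range. Between T2L and C2L their log2 fold changes were 0.28 (edgeR QL adjusted p = 0.392) and 0.17 (edgeR QL adjusted p = 0.602).

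E(spl)m3-HLH, E(spl)mdelta-HLH and E(spl)m5-HLH had the lowest levels of the 7. E(spl)m3-HLH was at 24.3, 11.9 and 13.2 CPM in CDXY replicates 4, 5 and 6 and at 32.1, 30.3 and 19.6 in CDXX (log2 0.73, edgeR QL adjusted p = 0.0604). It passed in 5 of 13 alternatives, with adjusted p up to 0.203 over all of them. Among the 5 were batch as a replicate block (log2 0.78, adjusted p = 0.0137) and the fit without CDXY replicate 4 (log2 1.1, adjusted p = 0.00954). E(spl)m5-HLH was at 3.48, 6.83 and 9.94 CPM in CDXY and at 18.1, 13.7 and 9.72 in CDXX (log2 1.03, edgeR QL adjusted p = 0.056). It passed in 4 of 13 alternatives, among them the fit without CDXY replicate 6 (log2 1.41, adjusted p = 0.0257), and its adjusted p reached 0.185 in others. CDXX replicate 6 was the lowest of the 3 CDXX libraries for each of the 7 E(spl) genes. Without that library 7 of the 10 members were called in CDXX against CDXY, 6 higher and 1 lower, with E(spl)m3-HLH (adjusted p = 0.0353), E(spl)m5-HLH (adjusted p = 0.0468) and E(spl)m7-HLH (adjusted p = 0.0357) added. E(spl)m7-HLH passed in no other of its 13 alternatives, with adjusted p up to 0.562. With each of the 6 libraries left out in turn, 3 to 7 members were called. Over all genes 2876 to 3834 were called in these runs, beside 3942 with all libraries.

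E(spl)mdelta-HLH, best known from photoreceptor specification in the eye disc, was at 20.2, 6.05 and 8.96 CPM in CDXY replicates 4, 5 and 6 and at 21.2, 25.8 and 10.2 in CDXX. It was at 19.9, 8.42 and 11.1 CPM in Oregon, at 8.47, 6.06 and 8.57 in C2L and at 9, 10.5 and 10.3 in T2L. Thus 4 libraries, Oregon replicate 4, CDXY replicate 4 and CDXX replicates 4 and 5, had 19.9 CPM or more, and the other 11 had 11.1 or less. The log2 fold change was 0.7 in CDXX against CDXY (95% interval −0.27 to 1.67, edgeR QL adjusted p = 0.22). It passed in 1 of 13 alternatives, without CDXY replicate 4 (log2 1.33, adjusted p = 0.0262), and adjusted p reached 0.529 in others. For T2L against C2L the log2 fold change was 0.37 (edgeR QL adjusted p = 0.615), although the groups did not overlap.

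Of 5 measured markers of the eye-antennal disc, 4 were summed apart from sev, and that sum was highest in the same 4 libraries. The summed level of gl, ro, lz and chp, genes of eye development, was 95.2 CPM in Oregon replicate 4, 183 in CDXY replicate 4, 131 in CDXX replicate 4 and 118 in CDXX replicate 5. In the other 11 libraries it lay between 9.19 and 43.9 CPM. The remaining measured marker, sev, on X, rose in CDXX (82.9 ± 52.9 to 190 ± 26.3 CPM, SD, n = 3), and of the 5 markers it was the only gene called in either trisomy. With sev included, the sum was 192 CPM in Oregon replicate 4 but 194 in CDXX replicate 6 and 166 in T2L replicate 4. The 5 markers together thus did not set the same libraries apart. The part of disc tissue in the results of the members was not tested. In batch 6 the 4 markers summed to 19.5 CPM in CDXY and 17.6 in CDXX, but with sev to 91.2 and 194. Each ratio within a batch rests on 1 library per group, so it cannot show what part disc tissue had. The log2 ratio of CDXX to CDXY in batch 6 was 0.95 for N, 0.78 for Dl, −0.5 for Su(H) and 0.34 for E(spl)mgamma-HLH. For E(spl)mdelta-HLH it was 0.19 in that batch, for E(spl)mbeta-HLH 0.15 and for E(spl)m3-HLH 0.56. For E(spl)m5-HLH it was −0.032, for E(spl)m7-HLH −0.27 and for E(spl)m8-HLH −0.26. In batch 4 the 4 markers were higher in CDXY than in CDXX, but with sev the sums were 324 and 351 CPM. The ratio in that batch was 1.02 for E(spl)mgamma-HLH, 2.35 for E(spl)m5-HLH, 0.67 for E(spl)m7-HLH and 0.54 for E(spl)m8-HLH. It was 0.4 there for E(spl)m3-HLH, 0.2 for E(spl)mbeta-HLH and 0.071 for E(spl)mdelta-HLH, beside 0.3 for N and 0.24 for Dl. In batch 5 the 4 markers were at 12.2 CPM in CDXY and 118 in CDXX, and with sev at 48.7 and 292. All 7 E(spl) genes had ratios above 0 there, from 0.54 for E(spl)m7-HLH to 2.08 for E(spl)mdelta-HLH.

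**Figure D3:**
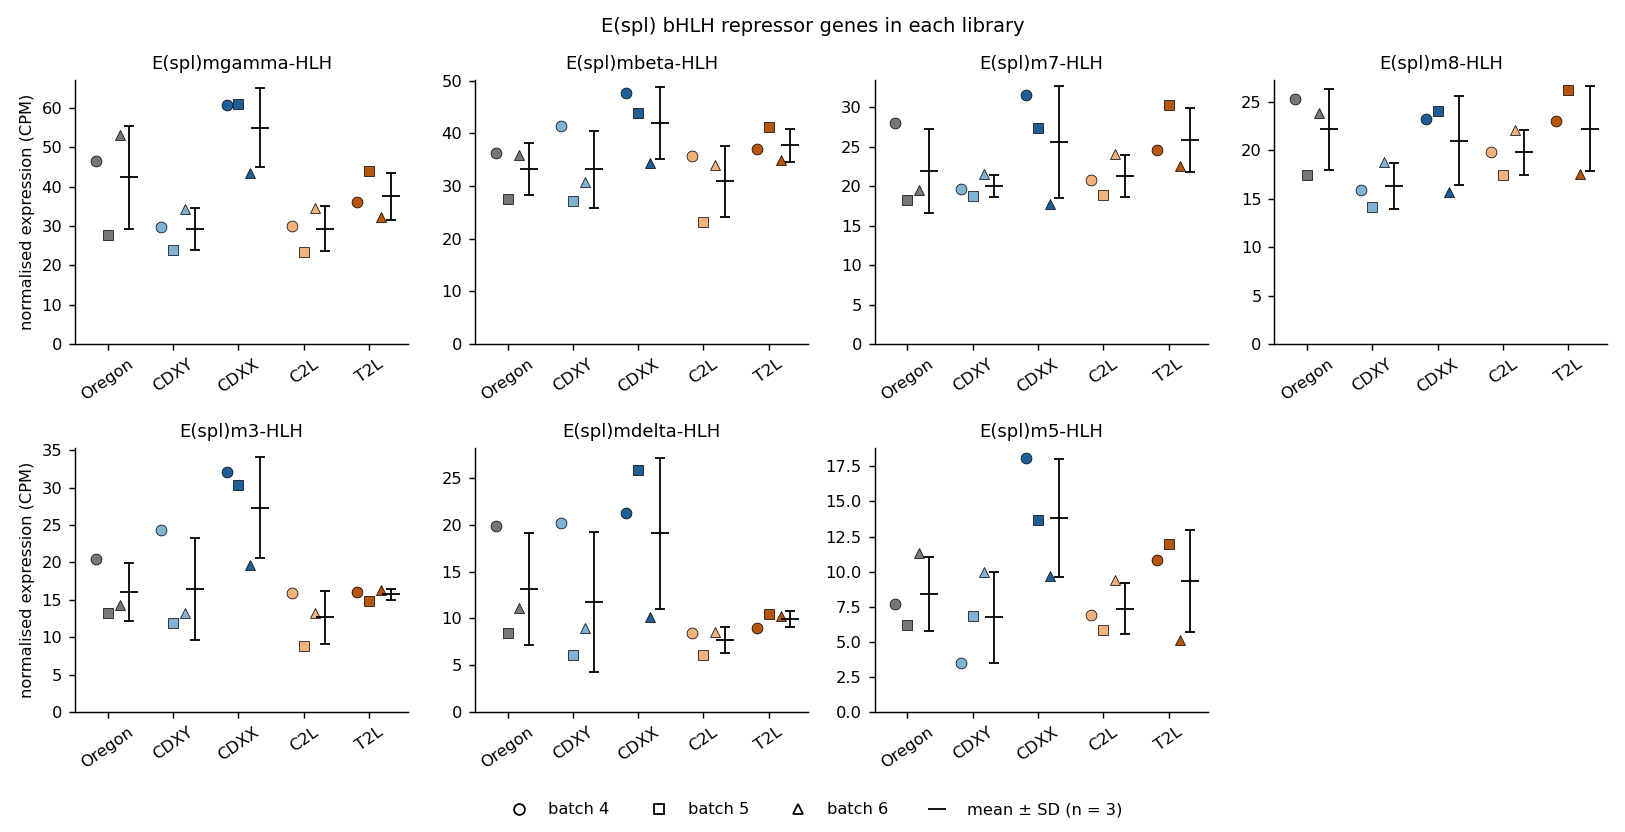
Expression of the 7 E(spl) bHLH genes in CPM (vertical axes, each starting at 0) in the 5 genotypes; points are single libraries with 1 symbol per batch, and bars are the mean and SD of 3 libraries. E(spl)mdelta-HLH shows 4 libraries at 19.9 CPM or more, and CDXX replicate 6 (triangle) is the lowest CDXX library in every panel.

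**Figure D4:**
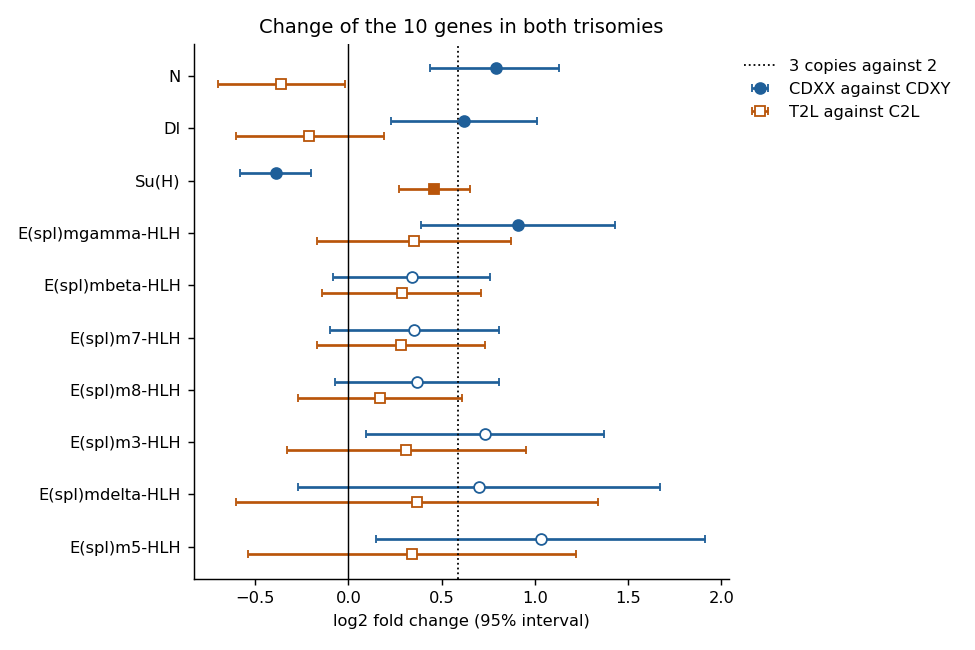
Log2 fold changes of the 10 genes (horizontal axis, with 95% intervals) in CDXX against CDXY and T2L against C2L; filled symbols passed the test, and the dotted line is the log2 copy ratio of 0.58. N and Su(H) lie on opposite sides of 0 in the 2 comparisons, and the 7 E(spl) genes lie above 0 in both, most with intervals that include it.

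The summed level of the 7 E(spl) genes was 212 ± 47.6 RPKM in CDXX (SD, n = 3), 167 ± 22.8 in T2L, 166 ± 36.1 in Oregon, 139 ± 22.7 in CDXY and 137 ± 23.2 in C2L. Single libraries ran from 157 to 244 RPKM in CDXX and from 114 to 158 in CDXY, so the groups overlapped only at 1 library each. E(spl)mgamma-HLH made up 28.7% ± 1.51 of the sum in CDXX and 23.1% ± 2.61 in CDXY, and 24.6% ± 0.703 in T2L and 23.5% ± 0.888 in C2L. E(spl)m8-HLH made up 12.9% ± 0.436 in CDXX, 15.3% ± 1.94 in CDXY, 17.2% ± 1.33 in T2L and 18.9% ± 1.39 in C2L.

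The control stocks were also set against Oregon. None of the 10 members was called in CDXY against Oregon, where 0.857% of all genes were called, and none in C2L against Oregon, where 2.14% were. The members with an unadjusted p under 0.05 in edgeR numbered 2 and 1, and DESeq2 also called 0 in each. In CDXX against Oregon 2 members were called, N and Su(H), against 35.3% of all genes, and 4 with batch as a replicate block, which added Dl and E(spl)m3-HLH. In T2L against Oregon only Su(H) was called, against 13% of all genes.

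Other genes of the complex and the pathway were taken from lists by role, and their counts in CDXX against CDXY stand beside 23.1% of all genes higher and 20.8% lower. Counts in T2L against C2L stand beside 11.6% of all genes higher and 4.05% lower. Those in CDXX against Oregon stand beside 35.3% of all genes called in either direction. Of the 5 other measured genes of the complex, E(spl)m4-BFM rose in CDXX against CDXY (22 ± 4.23 to 38.6 ± 8.96 CPM, SD, n = 3, edgeR QL adjusted p = 0.0108), and none was called in T2L against C2L. It encodes a Bearded family protein, an inhibitor of the ligand regulator Neuralized. In Oregon E(spl)m4-BFM was at 28.5 ± 6.17 CPM, and it was not called in CDXX against Oregon (log2 0.44, edgeR QL adjusted p = 0.133). The gene gro, also of the complex, for the corepressor recruited by the E(spl) proteins, had 322 ± 36.4 CPM in CDXY, beside 280 ± 25.1 in CDXX (log2 −0.2, edgeR QL adjusted p = 0.106).

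On the ligand side 2 of 8 genes rose in CDXX, Dl and Ocho, and none fell. Ocho, another Bearded family gene, went from 3.92 ± 1.58 to 16.8 ± 2.51 CPM (SD, n = 3, log2 2.1, edgeR QL adjusted p = 0.0012). The second ligand gene, Ser, was at 14.5 ± 4.22 and 11.2 ± 2.77 CPM (edgeR QL adjusted p = 0.463). None of the 8 was called in T2L.

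In the list of receptor maturation and cleavage, 2 of 12 genes rose in CDXX, N and the furin-family protease gene Fur2, both on X, and 6 fell, with a list median of −0.42. The ADAM protease gene kuz, whose product cuts ligand-bound Notch, went from 353 ± 20.6 to 207 ± 63.6 CPM (SD, n = 3, log2 −0.77, edgeR QL adjusted p = 0.00608). The count of falls lay between 3 and 7 in the alternatives. Against Oregon, where kuz was at 267 ± 47.9 CPM, 2 genes of the list rose in CDXX and 2 fell, with a median of −0.17. There kuz was not called (log2 −0.37, edgeR QL adjusted p = 0.141), nor were Fur1 (log2 −0.2, edgeR QL adjusted p = 0.518) and Tace (log2 −0.26, edgeR QL adjusted p = 0.112).

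Gamma-secretase, which releases the intracellular piece, has 4 subunits, and the following values were looked at after they were seen. The catalytic subunit gene Psn went from 118 ± 8.72 to 88.3 ± 9.97 CPM (SD, n = 3, edgeR QL adjusted p = 0.0212). The gene nct, for nicastrin, went from 112 ± 7.77 to 82.2 ± 10.2 CPM (edgeR QL adjusted p = 0.00371) and pen-2 from 18.5 ± 0.182 to 13.1 ± 1.28 (edgeR QL adjusted p = 0.0113). These 3 fell. The remaining subunit gene, aph-1, was at 37.3 ± 2.96 and 27.5 ± 6.68 CPM and did not pass (edgeR QL adjusted p = 0.0519). Against Oregon, Psn (log2 −0.39, edgeR QL adjusted p = 0.0371) and pen-2 (log2 −0.47, edgeR QL adjusted p = 0.0213) also fell in CDXX. There nct, at 90.7 ± 8.41 CPM in Oregon, was not called (log2 −0.14, edgeR QL adjusted p = 0.282), nor was aph-1 (log2 −0.24, edgeR QL adjusted p = 0.286). Between T2L and C2L none of the 12 genes of the list was called.

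Among nuclear cofactors 3 of 7 fell in CDXX and none rose. Besides Su(H), the coactivator gene mam, Mastermind, went from 431 ± 33.1 to 231 ± 72.7 CPM (SD, n = 3, log2 −0.9, edgeR QL adjusted p = 0.00813). The gene H, for the antagonist Hairless, went from 91 ± 1.81 to 79.4 ± 3.85 CPM (edgeR QL adjusted p = 0.0258), a call kept in 7 of 13 alternatives. With batch as a replicate block 5 of the 7 fell. Against Oregon 1 rose in CDXX and 1 fell, and mam, at 314 ± 70.2 CPM in Oregon, was not called (log2 −0.44, edgeR QL adjusted p = 0.15). Between T2L and C2L Su(H) rose and 2 fell by small amounts, H (log2 −0.21, edgeR QL adjusted p = 0.0434) and the corepressor gene CtBP (log2 −0.24, edgeR QL adjusted p = 0.0481). These calls of H and CtBP were kept in 5 of 13 alternatives each, and neither was called when scaling factors came from genes off X and 2L (adjusted p = 0.131 for each).

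In the list of Notch trafficking and turnover, 4 of 12 genes fell in CDXX and none rose. The ubiquitin ligase gene ago, the fly Fbw7, went from 189 ± 24.5 to 114 ± 7.61 CPM (SD, n = 3, edgeR QL adjusted p = 0.000797). The other 3 were aux, Cbl and Nedd4, with log2 fold changes of −0.29, −0.6 and −0.34. Against Oregon 1 gene of the list rose in CDXX and 2 fell. In T2L 3 of the 12 rose, all of them on 2L. The gene numb, an inhibitor of Notch inherited by 1 daughter cell, went from 86.2 ± 12.8 to 136 ± 12.6 CPM (log2 0.65, edgeR QL adjusted p = 0.00263), beside 110 ± 7.56 in Oregon. Su(dx), a ubiquitin ligase gene, had a log2 fold change of 0.45 and the kinase gene Nak one of 0.63, beside the median of 0.47 for 2L.

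**Figure D5:**
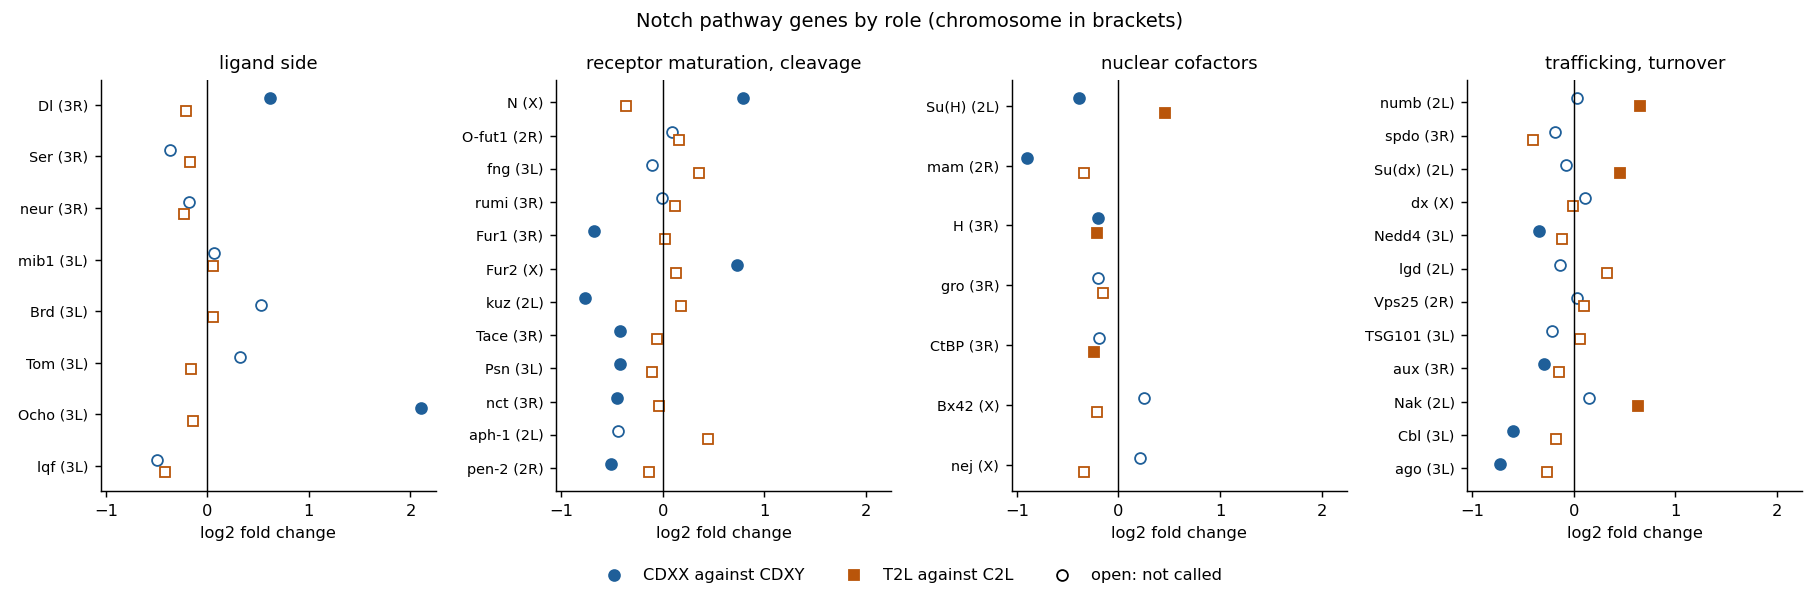
Log2 fold changes (horizontal axes) of the pathway genes in 4 lists, with the chromosome in brackets, in CDXX against CDXY (circles) and T2L against C2L (squares); filled symbols passed the test. In the panel of receptor maturation N and Fur2 lie right of 0 in CDXX while Fur1, kuz, Tace and the 4 gamma-secretase genes lie left of it, and in the panel of trafficking the filled squares are genes on 2L.

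Of 8 other hairy-related and Notch-responsive genes, Myc, the X-linked growth regulator, rose in CDXX from 145 ± 13.5 to 425 ± 52.3 CPM (SD, n = 3, log2 1.55, edgeR QL adjusted p = 0.000129), and none fell. The neuroblast repressor gene dpn was at 6.02 ± 0.652 and 8.41 ± 0.397 CPM (edgeR QL adjusted p = 0.165). Of 6 genes in the list of proneural and neuronal differentiation factors, 1 rose in CDXX and 3 fell. The X-linked proneural gene l(1)sc rose from 4.06 ± 1.68 to 16 ± 2.22 CPM (edgeR QL adjusted p = 0.00246). Oregon was at 10.5 ± 6.73, and l(1)sc was not called in CDXX against Oregon (log2 0.62, edgeR QL adjusted p = 0.233). The gene da, for the bHLH partner of proneural factors, fell from 125 ± 8.71 to 90.3 ± 12 CPM. The zinc-finger gene nerfin-1, which acts in neuronal differentiation and is not a proneural bHLH gene, fell from 457 ± 73.2 to 208 ± 43.3, and the proneural gene ato fell from 8.09 ± 0.379 to 4.41 ± 2.25 with a call kept in 7 of 13 alternatives. In T2L da, on 2L, rose (log2 0.37, edgeR QL adjusted p = 0.0258), also a call kept in 7 of 13 alternatives.

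Among 7775 genes of at least 5 CPM, those most like N in log2 CPM over the 15 libraries were Grip91, Rok and Rab18, all on X, with Pearson correlations of 0.953, 0.943 and 0.939. Of the 100 genes most like N, 85% lay on X. Those most like Su(H) were Sfmbt, CG17078 and Polr2J, with correlations of 0.972, 0.959 and 0.958, and all of the 100 genes most like it lay on 2L. Those most like E(spl)mgamma-HLH were E(spl)m4-BFM of the same complex (0.953), ReepB (0.891) and CG13252 (0.889), and those most like Dl were Rel (0.898), rasp (0.894) and CG7872 (0.89). With log2 CPM centred within batches these 12 correlations ran from 0.88 to 0.973, and each partner stayed among the 8 most alike. The points share genotype and batch, so these correlations describe the libraries only.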

How the data were processed

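Per the labels' protocols, libraries were made with poly(A) isolation and the NEBNext Ultra II kit. The deposited values are raw counts of reads per gene in 15 libraries, and the submitters' processing notes name Trim Galore, STAR 2.7.10a, featureCounts and dm6. For the strand setting, reads with several matches and the gene filter, the entry is not given in the sources used here, so reads shared by similar E(spl) copies are uncertain. Symbols and positions came from an annotation of the same assembly, with Dl matched as Delta through its synonym. Groups follow the genotype labels.

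Tests used the quasi-likelihood framework of edgeR 4.0.16 (R 4.3.3), with robust dispersion, TMM scaling, filterByExpr (8981 genes tested, 9 removed) and 1 mean per group over all 15 libraries, without covariates. P-values are two-sided, adjusted by Benjamini and Hochberg over all genes tested and called under 0.05. CPM and RPKM use TMM-scaled library sizes, and RPKM the union of exons. Intervals are from the same fit. Each library pools brains of its own day, so a p-value sets a difference against variation among such pools. Between replicates, the squared difference of counts was on average 55.5 to 199 times its sampling variance, and all replicates were kept as separate.

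The labels give each library a batch number, which pairs libraries of different groups, and the design text says only that replicates came from different days. Deviations from group means correlated with a median r of 0.13 for libraries of 1 batch (over 0.1 in 16 of 30 pairs) and −0.066 for libraries of different batches (17 of 60). Batch as a replicate block was an alternative. The others were DESeq2 1.42.0 (Wald test, or its size factors in edgeR), no filter, at least 10 counts in 3 libraries, scaling from genes off X and 2L, the compared groups alone, and leaving out each library. Alternatives for list counts and for genes other than the members were added after the data were seen. The fit was tested on simulated counts.

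The members and lists were chosen with earlier results of these data known. All members were named, and up to 4 called genes of lowest adjusted p per list and main comparison were eligible to be named. The remaining gamma-secretase genes, Fur1, Tace, Ser, gro, dpn and the eye disc markers other than sev were named after their values were seen. Genes most like a member were the 3 of highest correlation. E(spl)m1, BobA and ac were not analysed here.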

Additional observations from a re-analysis of the deposited data

Results flagged for a closer look

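The responses of 3 members differed between CDXX against CDXY and T2L against C2L by a test of the difference itself, in edgeR QL with n = 3 libraries per group. The difference of log2 fold changes, CDXX minus T2L, was 1.15 for N (adjusted p = 0.00331), 0.82 for Dl (adjusted p = 0.0358) and −0.85 for Su(H) (adjusted p = 0.000861). N and Su(H) lie on the arms present in 3 copies in CDXX and in T2L, and Dl lies on neither. All tested genes of those arms had median log2 fold changes of 0.45 for X in CDXX against CDXY and 0.47 for 2L in T2L against C2L. N and Su(H) passed in all 19 alternatives and Dl in 10 of 19, where its adjusted p ranged from 0.00854 to 0.091.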

How the results depend on the processing

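N, Su(H) and E(spl)mgamma-HLH in CDXX against CDXY and Su(H) in T2L against C2L passed in all 13 alternatives of each. Log2 fold changes ranged from 0.69 to 0.91 for N, −0.49 to −0.32 for Su(H) and 0.78 to 1.05 for E(spl)mgamma-HLH in CDXX, and from 0.45 to 0.51 for Su(H) in T2L. Dl in CDXX passed in 11 of 13, and E(spl)m3-HLH and E(spl)m5-HLH were added there by the DESeq2 Wald test (adjusted p = 0.0385 and 0.0312) and by scaling from genes off X and 2L (0.0425 and 0.0453). The cause of changes with a setting was not tested. In CDXX against Oregon, 2 members were called, and 4 by the DESeq2 Wald test, with scaling from genes off X and 2L, or with batch as a replicate block. When each library was left out, the members called numbered 3 to 7 in CDXX against CDXY, with 7 without CDXX replicate 6, 2 to 3 in CDXX against T2L, beside 4 with all libraries, and 2 to 4 in CDXX against Oregon, with 4 without Oregon replicate 4. Over all genes the calls in these 3 comparisons then numbered 2876 to 3834, 2506 to 3289 and 2314 to 2983. The block changed no other call of a member than those given above. Scaling from genes off X and 2L moved the share of higher calls over all genes from 52.5% to 62% in CDXX against CDXY, from 74.1% to 85.3% in T2L against C2L, from 52.9% to 67.8% in CDXX against Oregon and from 79.3% to 89.6% in T2L against Oregon. The genes called in CDXY against Oregon numbered 77, with 176 in DESeq2 and 14 with the compared groups alone, and those in C2L against Oregon 192, with 356 and 109. In T2L against Oregon they numbered 1166, with 563 in the compared groups alone, and in CDXX against Oregon 3173, with 1877. Depth limits E(spl)m5-HLH most, with 87 reads in its lowest library.

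No called member changed sign, and 67 of 1100 alternatives of single members did so among values that did not pass. In CDXY against Oregon N became 0.0032 with DESeq2 size factors or its Wald test, 0.0026 without a filter and 0.009 with scaling from genes off X and 2L, and E(spl)mbeta-HLH became 0.0011, 0.0012 and 0.007. In T2L against Oregon E(spl)m8-HLH became −0.012 without a filter and −0.0035 with the compared groups alone, Dl became 0.012 with scaling off X and 2L, and E(spl)m3-HLH 0.018 with that scaling and 0.0072 with the replicate block. In C2L against Oregon Su(H) became 5.6e-05 with that scaling and 0.00028 with the block. In CDXX against T2L E(spl)m7-HLH became 0.011 with that scaling. Values that changed sign with a library left out ranged as follows over all alternatives, 13 per comparison and 19 for the difference of responses. In CDXY against Oregon, N ran from −0.14 to 0.1, Su(H) from −0.091 to 0.062, E(spl)mdelta-HLH from −0.8 to 0.27, E(spl)mbeta-HLH from −0.19 to 0.12, E(spl)m3-HLH from −0.34 to 0.25, E(spl)m5-HLH from −0.69 to 0.0084 and E(spl)m7-HLH from −0.24 to 0.081. In C2L against Oregon, N ran from −0.031 to 0.19, Su(H) from −0.057 to 0.043, E(spl)mbeta-HLH from −0.23 to 0.066, E(spl)m5-HLH from −0.39 to 0.09 and E(spl)m7-HLH from −0.16 to 0.17. In T2L against Oregon, Dl ran from −0.17 to 0.077, E(spl)mgamma-HLH from −0.42 to 0.017, E(spl)mdelta-HLH from −0.66 to 0.026, E(spl)m3-HLH from −0.16 to 0.18, E(spl)m5-HLH from −0.07 to 0.45 and E(spl)m8-HLH from −0.16 to 0.15. E(spl)m8-HLH ran from −0.23 to 0.09 in CDXX against Oregon and from −0.23 to 0.085 in CDXX against T2L, where E(spl)m7-HLH ran from −0.19 to 0.19. In the difference of responses E(spl)mbeta-HLH ran from −0.071 to 0.25 and E(spl)m7-HLH from −0.11 to 0.28.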
